A study of Homo sapiens with 24 samples.

Results

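The ERBB2 amplicon on 17q12 is a stretch of chromosome 17 that is copied many times over in HER2-positive breast cancers. Its 7 genes examined here were ERBB2, GRB7, STARD3, MIEN1, PGAP3, ORMDL3 and CDK12, chosen by name and found as 7 of the 14493 genes of the count table. ERBB2 encodes HER2, a receptor tyrosine kinase that has no known ligand of its own and signals by pairing with the other receptors of its family. Genes that lie beside it are copied with it, so in amplified cells the dosage of several neighbours is raised together, although each is read from its own promoter. The other members do unlike work: GRB7 is an adaptor that binds activated receptors, MIEN1 a small membrane-associated protein linked to cell migration, STARD3 a cholesterol transfer protein of late endosomes, PGAP3 a remodelling enzyme of GPI anchors, ORMDL3 a restraint on sphingolipid synthesis in the endoplasmic reticulum, and CDK12 a cyclin-dependent kinase that acts on RNA polymerase II.

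RNA-seq had been carried out on SKBR3, an established line of HER2-positive human breast cancer cells, with 3 libraries in each of 8 groups. Cells of 6 groups had been driven into therapy-induced senescence (TIS) over 7 days, with a refeed at day 3. The ACC inhibitor ND-646 and the FASN inhibitor TVB-3166, which block fatty acid synthesis, were used at 250 nmol/L, bleomycin, which breaks DNA, at 10 μmol/L, the Aurora A inhibitor alisertib at 500 nmol/L, the topoisomerase poison doxorubicin at 10 nmol/L, and the CDK4/6 inhibitor palbociclib at 1 μmol/L. The other 2 groups were untreated proliferative cells at day 0 and at day 7. The labels name a refeed for the TIS groups only. If untreated day-7 cells were not refed, drug and refeed cannot be told apart in comparisons with them. All groups therefore shared 1 cell line with its fixed amplification, each drug was given at 1 dose, and the sources do not say whether the 3 libraries of a group came from separate cultures, so the p-values measure the spread between these libraries only.

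Total counts ran from 29405121 to 44316330 per library. The markers of the line were present in 24 of 24 libraries, with KRT8 at 1820 CPM or more (counts relative to the TMM-scaled library total), KRT18 at 1320 or more, KRT19 at 871 or more and EPCAM at 270 or more. ESR1, VIM, PTPRC and PECAM1 were not among the genes of the table, and COL1A1 lay between 6.46 and 15.2 CPM. Replicate 1 of ND-646 stood apart from replicates 2 and 3, with the lowest TMM factor of all libraries (0.785). As the chi-square per gene between libraries of a group, its distance was 146.4 and 159.1 against 13.37 between the other two. Replicate 1 of untreated day-0 cells stood apart likewise, at 170.6 and 171.9 against 18.31.

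The 7 genes lie on GRCh37 in the order CDK12 (chr17:37617739-37723812, plus strand), STARD3 (chr17:37793343-37820454, plus), PGAP3 (chr17:37827375-37853050, minus), ERBB2 (chr17:37844167-37886679, plus), MIEN1 (chr17:37884749-37886785, minus), GRB7 (chr17:37894180-37903544, plus) and ORMDL3 (chr17:38077294-38083854, minus). ERBB2 overlaps both of the genes beside it. On the opposite strand, 571 bases of MIEN1 exon, 28% of the total, lie over ERBB2 exon, and for PGAP3 the overlap is 144 bases or 4.0%. Exon here joins the exons of all annotated transcripts of a gene, which for MIEN1 fill the whole gene of 2037 bases. Use of strand in the counting is not given in the sources used here, so the counts of MIEN1, and less so of PGAP3, are uncertain by whatever ERBB2 reads fell in the overlap.

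Sequence just upstream of the annotated starts is shown for the genes whose levels differed most between groups and for ERBB2, because each gene is transcribed from its own promoter. In the 250 bases before the start of MIEN1 (chr17:37886786-37887035, minus strand, GRCh37, free of annotated exon), capitals mark a GC box and an E-box, CACGTG, at -21 to -16.

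MIEN1: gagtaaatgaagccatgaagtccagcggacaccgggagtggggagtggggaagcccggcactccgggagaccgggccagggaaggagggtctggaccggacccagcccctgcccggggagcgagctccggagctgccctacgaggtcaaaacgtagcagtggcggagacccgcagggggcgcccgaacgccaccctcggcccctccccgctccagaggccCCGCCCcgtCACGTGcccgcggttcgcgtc

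The 130 bases before the start of ORMDL3 (chr17:38083855-38083984, minus strand) hold a GC box, in capitals.

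ORMDL3: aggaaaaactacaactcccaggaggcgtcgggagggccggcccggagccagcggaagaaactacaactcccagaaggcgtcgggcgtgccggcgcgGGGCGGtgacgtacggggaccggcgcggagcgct

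Upstream of PGAP3 (chr17:37844320-37844340, minus strand), 2 copies of CCGGAAGT, an ETS-type sequence, face each other 5 bases apart, at -30 to -23 and -17 to -10. They lie within annotated exon of ERBB2 on the opposite strand, which takes 221 of the 250 bases of that window.

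PGAP3: ACTTCCGGttactCCGGAAGT

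In 30 bases before the MANE start of ERBB2 (chr17:37856227-37856256, plus strand), capitals mark its CCAAT box, which begins at -78 and lies within annotated exon of other ERBB2 transcripts (88 of the 250 bases).

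ERBB2: gcgcgcttgctcCCAATcacaggagaagga

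All searches covered both strands of the 250 bases upstream of the MANE start, and of 18921 such windows 5.13% held CCGGAAGT, 7.9% held CACGTG, 34.3% held CCAAT and 60.1% held the GC box GGGCGG. The GC box was in 5 of the 7 windows, and the CCAAT box, the E-box and the longer ETS-type sequence in 1 each. The short ETS core GGAAG, part of that longer sequence, was in 7 of 7 windows and in 67.0% of all of them. A match is a run of letters, and no binding was measured.

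ERBB2 RNA was among the most abundant in these cells in every group. It took 0.494% to 0.839% of all counts of a library, ranked between 3 and 11 of 14493 genes by count, and the 7 genes together took 0.802% to 1.124%. Per kb of exon, the only scale on which levels of different genes are compared here, ERBB2 had a median over 24 libraries of 646 CPM per kb. MIEN1 followed with 128 and CDK12 with 123, then GRB7 with 75.7, STARD3 with 72, ORMDL3 with 48 and PGAP3 with 33.3 CPM per kb. Exon length joins all annotated transcripts of a gene, so the order of close values such as 128 and 123 depends on that choice. The median gene of the 13424 with a length had 4.47 CPM per kb, so each of the 7 lay far above it, PGAP3 at the 90.73 percentile and ERBB2 at the 99.85 percentile.

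High levels were not shared by every gene between the members. Of 53 annotated protein-coding genes that start within 1 Mb of the lower end of ERBB2, 37 were in the table, the 7 members included. TCAP, a muscle sarcomere protein gene between STARD3 and PGAP3, had a median of 2.82 CPM per kb, PPP1R1B, just below STARD3, 2.63 and IKZF3, a lymphoid transcription factor gene between GRB7 and ORMDL3, 0.339. RPL19, a ribosomal protein gene at -487.6 kb from ERBB2, was the 1 gene of the window above ERBB2, at 2400 CPM per kb. Copy number was not measured in these files.

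**Figure D1:**
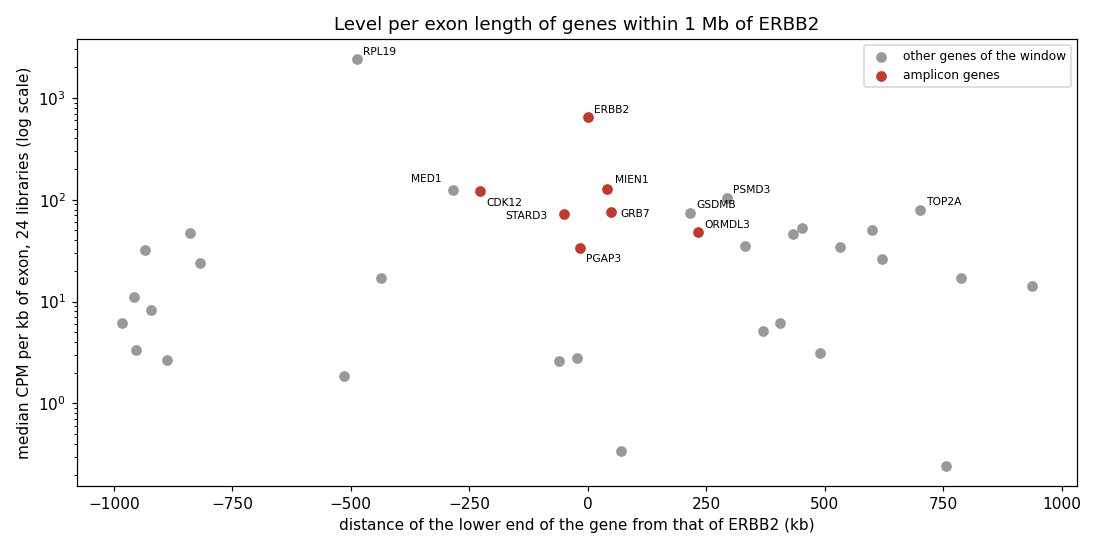
Median CPM per kb of exon over 24 libraries (log axis) against the distance in kb of each protein-coding gene's lower end from that of ERBB2; red points are the 7 amplicon genes and grey points the other genes of the window. ERBB2 stands at 646, RPL19 alone is higher, and genes at 2.82 or less lie between the red points.

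ERBB2 itself changed little. Replicates 1 to 3 gave 7483, 7090 and 6564 CPM in untreated day-0 cells and 7429, 6645 and 6320 in untreated day-7 cells. In TVB-3166 cells they gave 8828, 7482 and 8502 CPM, in ND-646 cells 8592, 6378 and 7288, in alisertib cells 7042, 6020 and 6691, and in palbociclib cells 6461, 6413 and 6680. The lowest values came from bleomycin cells, at 6783, 5157 and 5125 CPM, and doxorubicin cells, at 6157, 5606 and 5400. TVB-3166 libraries lay above the 3 untreated day-7 libraries without overlap, if by a small margin, and doxorubicin libraries lay below them, while the other 4 TIS groups overlapped the untreated range.

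The group means fell in the order TVB-3166 (8270 ± 702 CPM, SD, n = 3), ND-646 (7420 ± 1110), untreated day-0 (7050 ± 461), untreated day-7 (6800 ± 570), alisertib (6580 ± 520), palbociclib (6520 ± 142), doxorubicin (5720 ± 391) and bleomycin (5690 ± 948). No 2 neighbours in this order passed edgeR's quasi-likelihood test (adjusted p from 0.208 to 0.971), although the palbociclib libraries, at 6413 CPM or more, lay above the doxorubicin ones, at 6157 or less. From the highest group mean to the lowest ERBB2 spanned 0.55 on the log2 scale, against a median span of 0.72 over 9201 genes with a mean of at least 10 CPM.

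Against untreated day-7 cells, 1 of 6 TIS groups passed the test for ERBB2 (edgeR's quasi-likelihood test, Benjamini-Hochberg adjusted p under 0.05). In TVB-3166 cells ERBB2 was 1.22-fold higher (log2 0.29 ± 0.10 SE, adjusted p = 0.0362), and the call was lost without replicate 2 or 3 of untreated day-7 cells or without replicate 1 or 3 of TVB-3166 cells. In ND-646 cells the log2 fold-change was 0.11 (95% interval -0.32 to 0.55), in alisertib cells -0.03 (-0.23 to 0.17) and in palbociclib cells -0.05 (-0.26 to 0.15), intervals that leave out a change of 2-fold in either direction. Doxorubicin cells had -0.23 (adjusted p = 0.126) and bleomycin cells -0.25 (adjusted p = 0.189). Same-numbered libraries deviated together in that comparison, and with the number as a block ERBB2 was lower in bleomycin cells at an adjusted p of 0.0394, and without bleomycin replicate 1 the log2 fold-change was -0.41 (adjusted p = 0.0277). Against untreated day-0 cells none of 7 comparisons passed for ERBB2 in edgeR, with log2 fold-changes from -0.30 to 0.24, and 0 of 7 at an unadjusted p under 0.05. Without day-0 replicate 1, which stood apart, ERBB2 in TVB-3166 cells was 0.28 higher than at day 0 (adjusted p = 0.0466). DESeq2 called ERBB2 lower in doxorubicin cells (adjusted p = 0.0111).

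**Figure D2:**
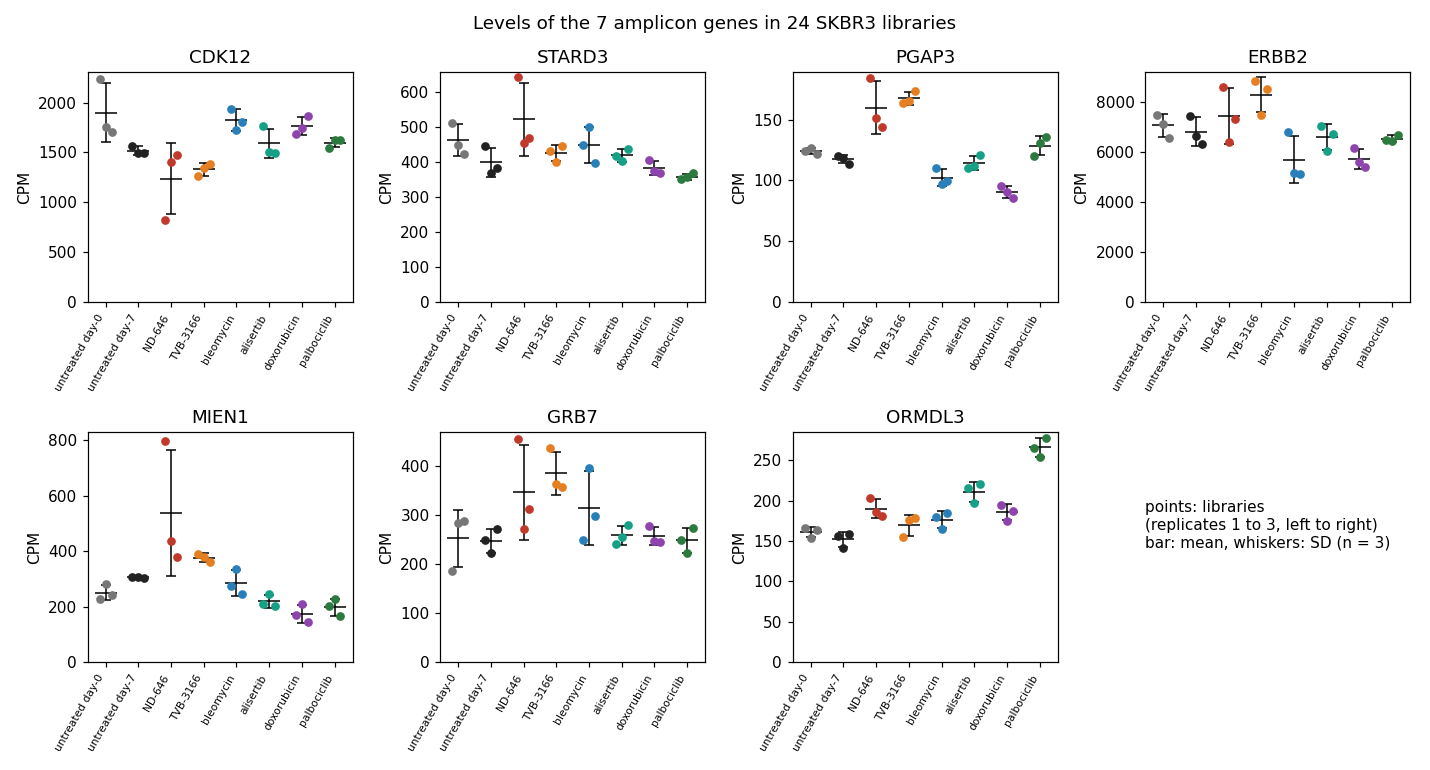
CPM of each of the 7 genes in 24 libraries; points are the 3 replicates of a group from left to right, with the mean and SD, and each axis starts at 0. ERBB2 lies between 5125 and 8828 CPM throughout, while MIEN1 runs from 145.2 to 795.3 CPM and the ND-646 replicate 1 point is apart from its group in CDK12 and MIEN1.

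Over all 7 members and 6 TIS groups, 42 tests against untreated day-7 cells gave 10 calls higher, 4 lower and 28 not called, and none reached a fold-change of 2 with a raw p under 0.05. The 6 comparisons, here and for the other genes below, use the same untreated day-7 libraries, so they are not independent. Calls were common among all genes tested, with 17.2% higher and 17.1% lower in ND-646 cells, 25.4% and 26.1% in TVB-3166 cells, 22.4% and 23.2% in bleomycin cells, 9.55% and 9.49% in alisertib cells, 21.9% and 21.5% in doxorubicin cells and 22% and 22.9% in palbociclib cells. The fold-change rule took 17.4%, 13.4%, 14.1%, 3.27%, 8.77% and 11.2% of all genes in that order. Members called higher were 2 of 7 in ND-646 cells, 4 of 7 in TVB-3166 cells and 1 of 7 in each other group, and members called lower were 2 of 7 in doxorubicin cells and 1 of 7 in alisertib and in palbociclib cells. The 10 calls higher became 6 without untreated day-7 replicate 2 or without replicate 3, and 6 when libraries were scaled by total counts alone, under which the calls lower became 7.

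The 2 members on either side of ERBB2 were higher in cells treated with the fatty acid synthesis inhibitors. PGAP3, which reshapes the lipid part of GPI anchors in the Golgi, had 119.9, 118.4 and 113.7 CPM in untreated day-7 cells, 184.3, 151.5 and 143.9 in ND-646 cells and 163.9, 164.9 and 173.4 in TVB-3166 cells. In doxorubicin cells it had 95.52, 90.15 and 85.39 CPM, and in none of these groups did libraries overlap the untreated ones. PGAP3 rose 1.43-fold with TVB-3166 (log2 0.52 ± 0.07 SE, adjusted p = 0.000131) and 1.35-fold with ND-646 (log2 0.44 ± 0.13, adjusted p = 0.0331), and in doxorubicin cells the log2 fold-change was -0.35 ± 0.08 (adjusted p = 0.00316). The ND-646 call was lost without any 1 of the untreated day-7 libraries or ND-646 replicate 2, and with total counts alone.

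MIEN1 varied the most of the 7, with a span of 1.55 on the log2 scale over the group means. Untreated day-7 libraries were close together, at 305.5, 308.8 and 303.9 CPM, with 229.4, 282.7 and 240.9 CPM at day 0. ND-646 cells had 795.3, 435 and 378.9 CPM and TVB-3166 cells 390, 379.7 and 359.4, all above the untreated range. Alisertib cells had 208.7, 246.3 and 202.9 CPM, palbociclib cells 201.3, 226.9 and 166.1 and doxorubicin cells 170.8, 208.7 and 145.2, all below the untreated day-7 range.

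Against untreated day-7 cells MIEN1 rose with TVB-3166 (1.23-fold, adjusted p = 0.00553) and with ND-646 (log2 0.80 ± 0.26, adjusted p = 0.044), and it was lower in doxorubicin (log2 -0.78 ± 0.11, adjusted p = 0.000231), palbociclib (-0.62 ± 0.10, adjusted p = 0.00056) and alisertib cells (-0.47 ± 0.08, adjusted p = 0.00473). Without ND-646 replicate 1 the ND-646 value was 0.40, and the call was lost without any 1 of the untreated day-7 libraries, with total counts alone and without a filter on low counts. With all 24 libraries in 1 fit the TVB-3166 and alisertib calls were lost (adjusted p = 0.233 and 0.139). Bleomycin libraries, at 276, 337.6 and 244.5 CPM, overlapped the untreated ones.

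GRB7, the adaptor downstream of HER2, had 248.4, 222.4 and 271.3 CPM in untreated day-7 cells. TVB-3166 libraries, at 435.3, 363.2 and 356.7 CPM, lay above them, 1.56-fold higher (log2 0.64 ± 0.10, adjusted p = 0.000379). ND-646 libraries, at 454.9, 271.3 and 312.1 CPM, had their lowest value level with the highest untreated one and gave a log2 fold-change of 0.47 (adjusted p = 0.098), and 0.23 without replicate 1. Bleomycin libraries were spread from 249 to 395.8 CPM (log2 0.36, adjusted p = 0.0992), and alisertib, doxorubicin and palbociclib libraries lay between 223 and 280 CPM with log2 fold-changes of 0.08, 0.08 and 0.02.

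ORMDL3, which holds back serine palmitoyltransferase at the start of sphingolipid synthesis, had an order of groups unlike that of ERBB2. Palbociclib cells had 264.8, 254.3 and 277.7 CPM against 156.3, 141.7 and 159.1 in untreated day-7 cells, a rise of 1.75-fold (log2 0.81 ± 0.08, adjusted p = 1.83e-05). Alisertib cells followed with 214.9, 197.1 and 220.1 CPM (1.4-fold, adjusted p = 0.00257). ND-646 cells came next by mean, with 203.7, 185.8 and 180.7 CPM, and did not pass (log2 0.31, adjusted p = 0.0764, but past the threshold at 0.25 without replicate 1). Doxorubicin cells had 195, 175.3 and 187.3 CPM (1.24-fold, adjusted p = 0.00877, lost without doxorubicin replicate 1). In each of these 4 groups the libraries lay above the untreated range. Palbociclib also lay above alisertib, the next group in order (1.27-fold, adjusted p = 0.00581). In bleomycin cells the log2 fold-change was 0.22 (adjusted p = 0.0657, and 0.0289 with the replicate number as a block).

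CDK12 and STARD3, which lie below ERBB2 on the chromosome, gave 1 call between them against untreated day-7 cells. CDK12, which with cyclin K keeps long DNA repair genes transcribed, had 1568, 1490 and 1496 CPM in untreated day-7 cells and 1940, 1727 and 1807 in bleomycin cells (1.21-fold, adjusted p = 0.041). That call was lost without any 1 of the untreated libraries or without bleomycin replicate 1 or 3. ND-646 libraries had 827, 1405 and 1473 CPM, replicate 1 lying far below the rest, and a log2 fold-change of -0.30 (95% interval -0.83 to 0.22), which was -0.09 without replicate 1. STARD3 had 446, 370 and 383.8 CPM in untreated day-7 cells and no TIS group passed, with log2 fold-changes from -0.15 in palbociclib cells to 0.38 in ND-646 cells (adjusted p = 0.121, and 0.20 on the log2 scale without ND-646 replicate 1).

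**Figure D3:**
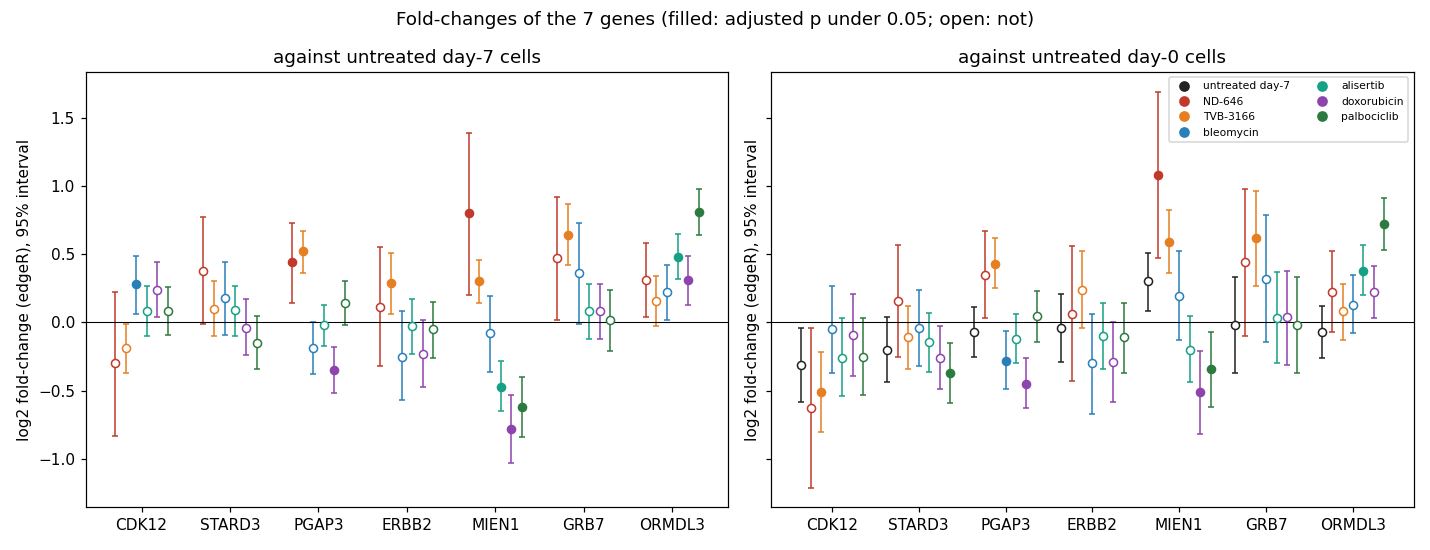
Log2 fold-change (edgeR) with its 95% interval for each of the 7 genes, against untreated day-7 cells on the left and untreated day-0 cells on the right; filled points had an adjusted p under 0.05 and open points did not. On the left MIEN1 runs from -0.78 to 0.80 and ORMDL3 is above 0 in 6 of 6 groups, with 3 filled points. The 6 groups share the untreated day-7 libraries they are compared with.

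Untreated cells changed little on their own. Between day 0 and day 7, 0 of the 7 genes were called by edgeR or by DESeq2, beside 0.389% of all genes higher and 0.198% lower, and MIEN1 had the highest log2 fold-change of 0.30 (adjusted p = 0.12) and CDK12 the lowest of -0.31 (adjusted p = 0.161). Both had an unadjusted p under 0.05. Without day-0 replicate 1 the CDK12 value was -0.18. Against day-0 cells the TIS groups and untreated day-7 cells gave, over 49 tests, 6 calls higher, 6 lower and 37 not called. Of all genes tested against day 0, 19.1% were higher and 18.8% lower in ND-646 cells, 27.4% and 27.7% in TVB-3166 cells, 24.1% and 25.3% in bleomycin cells, 17.7% and 19.6% in alisertib cells, 23.7% and 24.8% in doxorubicin cells and 26% and 27.2% in palbociclib cells. The fold-change rule took 1.99% of genes in untreated day-7 cells and 20.7%, 17.6%, 18.8%, 7.9%, 12.9% and 16.7% in the TIS groups in that order. These tests share the TIS libraries with those against day 7.

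The calls against day 0 fell on the same genes in part. MIEN1 was higher in ND-646 cells (2.11-fold, adjusted p = 0.0129), the single test past a fold-change of 2, and in TVB-3166 cells (1.5-fold, adjusted p = 0.000669), and lower in doxorubicin and palbociclib cells. The palbociclib value (log2 -0.34, adjusted p = 0.0373) lost its call with total counts alone, with 24 libraries in 1 fit and in 3 of 6 fits with 1 library left out, and the ND-646 call was lost without day-0 replicate 1 or 3. PGAP3 and GRB7 were higher in TVB-3166 cells (log2 0.43 and 0.62, the latter 0.44 without day-0 replicate 1), and ORMDL3 in alisertib and palbociclib cells (log2 0.38 and 0.72). PGAP3 was lower in bleomycin and doxorubicin cells (log2 -0.28 and -0.45), but the bleomycin call was lost in 5 of 6 fits with 1 library left out. CDK12 was lower in TVB-3166 cells (log2 -0.51, adjusted p = 0.00674) and STARD3 in palbociclib cells (log2 -0.37, adjusted p = 0.01). Without ND-646 replicate 1, MIEN1 in ND-646 cells was 0.69 above day 0 on the log2 scale.

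The 2 inhibitors of fatty acid synthesis were then compared with each other and with the remaining drugs. Between TVB-3166 and ND-646 cells 0 of the 7 genes were called by edgeR or by DESeq2, and 0 had an unadjusted p under 0.05, beside 0.717% of all genes called. The difference for ERBB2 was 0.17 on the log2 scale (95% interval -0.25 to 0.59) and for MIEN1 -0.50 (-1.10 to 0.11). Without ND-646 replicate 1, GRB7 was 0.41 higher in TVB-3166 cells (adjusted p = 0.036). Between both of these groups as a set and the other 4 TIS groups, 5 of the 7 members were higher and 2 lower, beside 26.1% and 24% of all genes. MIEN1 was higher by 1.06 ± 0.13 SE on the log2 scale (adjusted p = 3.95e-06), PGAP3 by 0.60 ± 0.06 (3.8e-07), GRB7 by 0.45 ± 0.11 (0.0023), ERBB2 by 0.36 ± 0.09 (0.00197) and STARD3 by 0.24 ± 0.07 (0.0127), while CDK12 had -0.40 ± 0.09 (0.00232) and ORMDL3 -0.20 ± 0.05 (0.00597). The STARD3 call was lost when libraries were scaled by total counts alone, and its value was 0.15 without ND-646 replicate 1. Leaving out any 1 of 18 libraries kept 5 genes higher and 2 lower. These values average groups that were not alike. Taken singly against the other 4 drugs, ERBB2 was called higher in TVB-3166 cells each time (edgeR adjusted p from 0.00168 to 0.025). In ND-646 cells it never passed (0.161 to 0.546), nor did GRB7 (0.123 to 0.782) or CDK12 (0.127 to 0.266). GRB7 in TVB-3166 cells passed against alisertib, doxorubicin and palbociclib cells, but not against bleomycin cells (edgeR adjusted p = 0.187). ORMDL3 had a higher mean in ND-646 cells (190 CPM) than in doxorubicin (186) or bleomycin cells (176). STARD3 had a lower mean in TVB-3166 (427 CPM) than in bleomycin cells (449). In bulk libraries a change in all cells and a larger change in some of them cannot be told apart.

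Over the 8 group means, PGAP3 followed ERBB2 most closely of the members (Pearson r = 0.93, and 0.84 over 24 libraries), and CDK12 ran against it (r = -0.70 over groups, -0.53 over libraries). MIEN1 had r = 0.65 with ERBB2 over groups, GRB7 0.52, STARD3 0.35 and ORMDL3 -0.19. These values describe libraries that share their scaling, and PGAP3 and MIEN1 also share exon bases with ERBB2. Of 9200 other genes with a mean of at least 10 CPM, those most like ERBB2 over the 8 group means were NMRAL1 and LRRC57 (r = 0.970 each). Next came SLC25A1, the mitochondrial citrate carrier (0.966), VPS36, a subunit of the ESCRT-II sorting complex (0.964), and RGS16, a regulator of G protein signalling (0.963). They were picked as the highest of 9200 values over 8 points each, so the size of r is in part a result of the picking.

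Count ratios within a library, which need no scaling between libraries, showed the same spread among members. Relative to ERBB2, ORMDL3 was 0.86 higher in palbociclib cells than in untreated day-7 cells on the log2 scale, and 0.53 and 0.51 higher in doxorubicin and alisertib cells. MIEN1 relative to ERBB2 was 0.58 lower in doxorubicin cells and in palbociclib cells, at log2 ratios of -5.05 in each against -4.47 in untreated day-7 cells. CDK12 relative to ERBB2 was at -1.63 in bleomycin cells and -1.70 in doxorubicin cells against -2.16 in untreated day-7 cells, and at -2.63 in TVB-3166 cells. A ratio shows unequal change and not which gene of the pair changed.

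**Figure D4:**
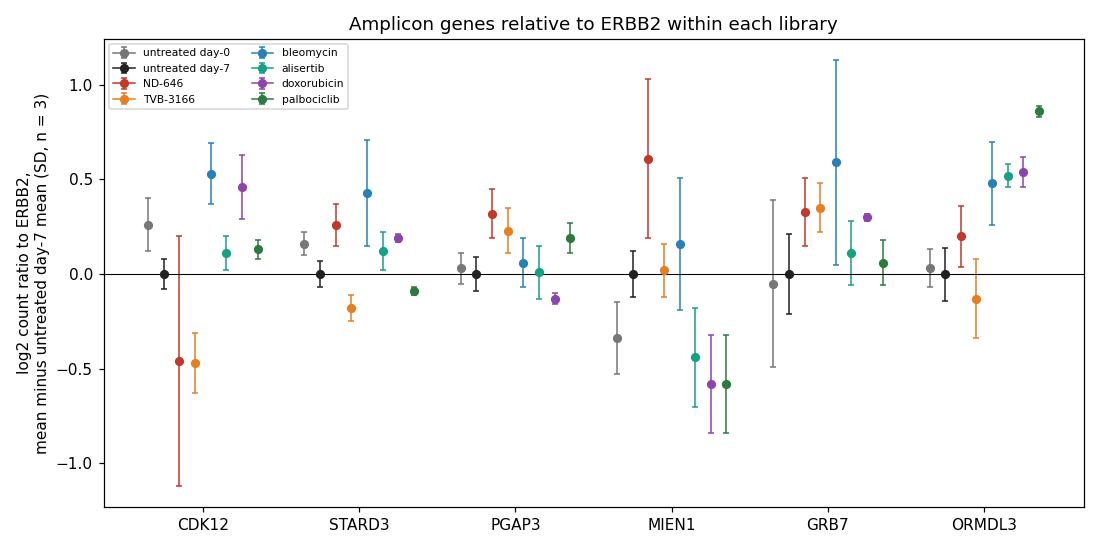
Mean log2 count ratio of each gene to ERBB2 in the same library, less the untreated day-7 mean, with the SD of 3 libraries; the line at 0 is untreated day-7 cells. ORMDL3 in palbociclib cells is at 0.86 and MIEN1 in doxorubicin and palbociclib cells is at -0.58.

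MIR4728, a microRNA gene inside ERBB2, lies in the intron between exons 23 and 24 of the 27 exons of the MANE transcript (chr17:37882748-37882814, plus strand) and overlaps no annotated ERBB2 exon. Its row held 9 to 20 counts in each of the 6 untreated libraries and 8 to 36 in the TIS libraries, so counting error is large, and libraries of this kind do not measure a mature microRNA. Against untreated day-7 cells the MIR4728 row was higher in ND-646 (log2 1.07, adjusted p = 0.045), TVB-3166 (1.02, adjusted p = 0.0281), doxorubicin (1.01, adjusted p = 0.0292) and palbociclib cells (1.03, adjusted p = 0.0447), while alisertib cells gave 0.93 (adjusted p = 0.0642) and bleomycin cells 0.46 (adjusted p = 0.4). In those same groups the log2 fold-change of ERBB2 was between -0.25 and 0.29. The MIR4728 calls were not recomputed under other settings.

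The other genes of the region moved in both directions. Of 33 that start within 1 Mb of ERBB2, 32 were tested, and against untreated day-7 cells between 2 (alisertib) and 12 (bleomycin) were higher and between 5 (alisertib) and 11 (ND-646 and TVB-3166) were lower. Without ND-646 replicate 1, the ND-646 counts were 8 higher and 13 lower in place of 5 and 11. Among all genes tested, 9.55% (alisertib) to 25.4% (TVB-3166) were higher and 9.49% (alisertib) to 26.1% (TVB-3166) lower. TOP2A, the topoisomerase gene 700.6 kb above ERBB2, fell in 6 of 6 groups (log2 -2.35 to -0.33) and MSL1, a subunit of a histone acetyltransferase complex, rose in 6 of 6 (log2 0.41 to 0.54). LASP1, an actin-binding protein gene, rose in bleomycin, doxorubicin and palbociclib cells and fell in the rest. THRA and PSMB3 fell in 5 groups each, and FBXL20 rose in 5. CDC6, TNS4, SMARCE1 and MED24 fell in 4 groups each, RARA-AS1, an antisense RNA of RARA, rose in 4, and CACNB1 and IKZF3 rose in 2 and fell in 2.

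Genes that work with the receptor gave a mixed account against untreated day-7 cells. Of 15 genes of ERBB2 signalling, among them receptors, adaptors and kinases, between 1 (alisertib) and 8 (bleomycin) rose and 2 or 3 fell. By group, 9.55% to 25.4% of all genes rose and 9.49% to 26.1% fell. ERBB3, the partner receptor of HER2, rose in 5 of 6 groups, from 0.34 in doxorubicin to 0.85 in TVB-3166 cells on the log2 scale, with 0.16 in alisertib cells (adjusted p = 0.142). PTK6 and PIK3CA rose in 5 groups each, and AKT1 fell in 6 of 6 (log2 -0.93 to -0.26). In ND-646 cells 3 of the 15 rose, and 8 did without ND-646 replicate 1. Of the GRB7 family, GRB14 fell in ND-646, TVB-3166 and bleomycin cells (log2 -2.23, -1.46 and -0.88). Its level was low, at 1.95 CPM in untreated day-7 cells. GRB10, at 34.3 CPM there, rose in palbociclib cells (0.54) and fell in TVB-3166 cells (-0.36).

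Feedback and target genes of the ERK pathway, which HER2 signalling drives among others, rose in most TIS groups. Of 13 tested, 11 rose with ND-646 and with TVB-3166, 12 with bleomycin, 10 with doxorubicin and with palbociclib and 5 with alisertib, and 1 fell in doxorubicin and in alisertib cells. The median log2 fold-change was 1.25 with ND-646, 1.36 with TVB-3166, 1.06 with bleomycin, 0.62 with doxorubicin, 0.79 with palbociclib and 0.45 with alisertib, against 0 to 0.02 over all genes. SPRY4, a feedback inhibitor, rose by 0.74 (alisertib) to 2.33 (ND-646), and SPRED2 and CCND1 also rose in 6 of 6 groups. PHLDA1 rose in 5 groups (log2 2.1 to 3.2), from a low level of 1.64 CPM in untreated day-7 cells. The gene that fell was EGR1, an immediate early transcription factor. Between 9.55% (alisertib) and 25.4% (TVB-3166) of all genes rose. The list was chosen with earlier results of these data known, so its counts are a description and not a test of the pathway.

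**Figure D5:**
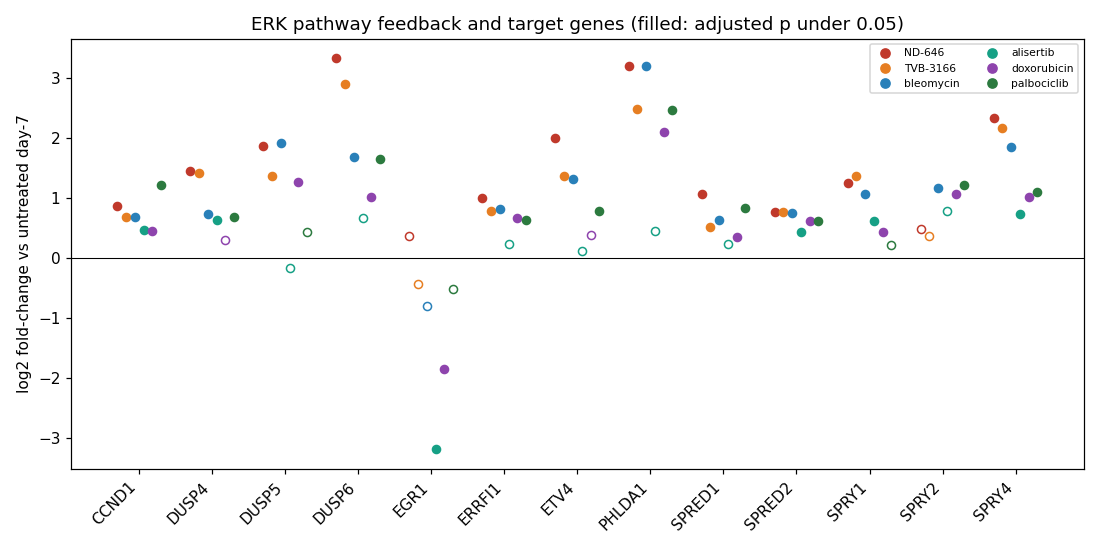
Log2 fold-change (edgeR) of 13 ERK feedback and target genes against untreated day-7 cells in 6 TIS groups; filled points had an adjusted p under 0.05 and open points did not. SPRY4 is filled and above 0 in 6 of 6 groups.

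Of 8 transcription factors that bind the ERBB2 gene, TFAP2B fell in 6 of 6 groups (log2 -3.33 to -0.98) and YBX1 in 5. TFAP2B was scarce, at 3.25 CPM in untreated day-7 cells. Its relatives TFAP2C (191 CPM there) and TFAP2A (154 CPM) fell in 3 groups and in 1 group. ELF3 rose in 5 (log2 0.78 to 1.38, with 0.13 in alisertib cells) and ETV4, which is also in the ERK list, in 4. Counts of the 8 ran from 0 (alisertib) to 3 (palbociclib) higher and from 2 to 5 lower. Among all genes the shares were 9.55% to 25.4% higher and 9.49% to 26.1% lower. Of 8 chaperones and ubiquitin ligases of the HER2 protein 0 to 2 rose and 0 to 3 fell. In ND-646 cells 1 rose and 0 fell, but 2 rose and 3 fell without ND-646 replicate 1. RNF41, which marks ERBB3 for degradation, rose in 4 groups (log2 0.28 to 0.44) and CBL in 2. HSP90AA1 fell in TVB-3166 cells and STUB1 in doxorubicin cells.

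Genes that act with the other members were counted in the same way. Beside these counts stand the shares over all genes, 9.55% to 25.4% higher and 9.49% to 26.1% lower. Of 6 partners and targets of CDK12, up to 2 rose (palbociclib) and up to 4 fell (TVB-3166), with FANCI lower in 5 groups (log2 -2.64 to -0.46), FANCD2 in 4, BRCA1 in 3 and the related kinase CDK13 higher in 4. Of 9 genes of sphingolipid synthesis and its control, 5 rose with ND-646, 6 with TVB-3166, 3 with alisertib and with doxorubicin and 1 with bleomycin and with palbociclib, and 2 fell with bleomycin. The 9 include ORMDL1 and ORMDL2, relatives of ORMDL3, and ORMDL2 was among those that rose with TVB-3166 (log2 0.33). SPTSSA, a small subunit of serine palmitoyltransferase, rose in 6 of 6 groups (log2 0.45 to 0.76) and SPTLC2, a large subunit, in 4. Of 8 genes of lysosomal and START-domain cholesterol transfer, the setting of STARD3, 4 rose with ND-646, 5 with TVB-3166, 2 in bleomycin, 1 in doxorubicin and palbociclib and 0 in alisertib cells, and at most 1 fell. NPC1 rose in 4 of these groups, NPC2 in 3, and STARD4 in ND-646 and TVB-3166 cells (log2 1.52 and 2), while STARD5 fell in 3. Of 4 genes of GPI anchor remodelling tested, PGAP2 fell in 3 groups, PGAP1 fell in TVB-3166 cells, and PGAP6 rose in 3. Without ND-646 replicate 1, ND-646 counts were 6 higher for sphingolipid synthesis and 5 for cholesterol transfer. They were then 1 higher and 4 lower for CDK12 partners and targets, and 1 higher and 2 lower for GPI anchor remodelling. Of 6 proliferation genes, 6 fell in ND-646, TVB-3166, bleomycin and palbociclib cells, 5 in doxorubicin and 3 in alisertib cells.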

How the data were processed

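RNA-seq counts of 24 SKBR3 libraries, 3 in each of 8 groups taken from the labels, were used. The authors aligned reads to GRCh37 with HISAT2, ran StringTie, and deposited read counts per gene as whole numbers without normalization; the counting settings are not given in the sources used here, and the methods name a total RNA kit where the labels name mRNA. The lowest count in the deposited table is 1, so a gene without reads in a library is not listed. Total counts were 29405121 to 44316330 per library, so the spread between replicates, not counting error, limits precision for all members.

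Groups were compared pairwise with edgeR 4.0.16 in R 4.3.3 (filterByExpr, TMM, glmQLFit and glmQLFTest, two-sided, Benjamini-Hochberg adjustment over all genes tested); a call is an adjusted p under 0.05. The contrast of ND-646 and TVB-3166 with the other 4 TIS groups was fitted on 18 libraries. Levels are TMM-scaled CPM over 24 libraries, per kb of GENCODE exon (all transcripts joined) on GRCh37 where genes are compared, and 13701 genes (94.5%) matched that annotation. An exact permutation test of 3 libraries against 3 cannot go below p = 0.1. Same-numbered libraries deviated together in 3 of 3 correlations (0.105 to 0.38) for bleomycin and alisertib against untreated day-7 and for TVB-3166 against ND-646; the numbers were taken to pair those libraries. The scripts were tested on simulated data.

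The members and lists were chosen with earlier results of these data known. Named genes were the 7 members, neighbours called in at least 4 of 6 TIS groups, up to 4 genes of each list called in the most groups, and the 5 genes most like ERBB2. RARA-AS1 is an antisense gene whose reads cannot be told from those of RARA without strand. Genes named beyond this rule (TCAP, PPP1R1B, RPL19, EGR1, STARD4, PGAP1 and BRCA1 among them) were chosen after their values were seen. Alternatives were RLE size factors, total counts alone, DESeq2 1.42.0, all 24 libraries in 1 fit, other filters (none, or 10 counts or more in each library), a replicate block and leaving out each library; list counts without ND-646 replicate 1 were added after seeing the data.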

Additional observations from a re-analysis of the deposited data

How the results depend on the processing

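No value for a member reversed its direction with a call. Of the single-gene values recomputed under the alternatives, 1370 kept their side of the threshold, 41 lost a call and 38 gained one; the cause was not tested. Against untreated day-7 cells, the 10 calls higher and 4 lower became 6 and 7 with total counts alone, 0 and 0 at a fold-change of 2, and 6 to 11 and 4 to 6 when 1 library was left out. With the replicate block they were 12 and 5. Against day-0 cells, the 6 higher and 6 lower became 10 higher with 24 libraries in 1 fit and 10 lower with the replicate block. Same-numbered libraries deviated together there in 1 or 2 of 3 correlations, so the numbers were not taken to pair them. The day-0 counts became 1 and 0 at a fold-change of 2, and 5 to 6 and 4 to 7 with 1 library left out. For TVB-3166 against ND-646, calls higher were 0 to 1. ERBB2 in TVB-3166 cells against day 7 was 0.19 (adjusted p = 0.0692) with total counts, 0.28 (0.0937) without a filter and 0.28 (0.0953) with 24 libraries in 1 fit, and 0.23 to 0.35 with 1 library left out; against day 0 it was 0.18 to 0.30. ERBB2 in bleomycin cells against day 7 was -0.38 (0.0229) with total counts, -0.25 (0.0394) with the replicate block and -0.41 to -0.17 with 1 library left out; against day 0 the block gave -0.31 (0.05). In doxorubicin cells DESeq2 gave -0.23 (0.0381) against day 7 and -0.30 (0.0111) against day 0, where the block gave -0.29 (0.0489). For the contrast with the other 4 TIS groups, 5 higher and 2 lower became 4 higher with total counts and kept those numbers under the other scalings and filters, the block, 24 libraries in 1 fit, DESeq2 and the fits with 1 library left out; at a fold-change of 2, 1 (MIEN1) was higher and 0 lower.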
